A study of Arabidopsis thaliana with 3 samples.

Results

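The Aurora kinase family of Arabidopsis was followed in cells of the root quiescent center (QC), the rarely dividing group at the core of the root stem cell niche. The family has 3 genes, AUR1, AUR2 and AUR3, and all 3 were found among the 13356 genes that the array annotation ties to a probe set naming that gene alone. They were picked by name as the whole family, not by a cut on any measured value, but with earlier results of these data known. The 3 samples form a single group of Col-0 roots carrying WOX5:GFP, 5 days after stratification. The WOX5 promoter drives the reporter in the QC, and GFP-positive protoplasts, cells freed of their walls, went from the sorter straight into extraction buffer. After amplification each RNA was put on an ATH1 array of its own, and the series holds no other cell type or condition for a contrast.

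Aurora kinases are serine/threonine kinases that act during mitosis, when they help to build the spindle, attach chromosomes to it and separate the daughter cells. Plants carry an alpha class, AUR1 and AUR2, which sits on the spindle and the forming cell plate and helps to orient formative divisions, and a beta class, AUR3, which sits at centromeres and phosphorylates histone H3. In dividing cells their transcripts are known to peak around mitosis, so a tissue in which cells rarely divide is a natural place to ask whether their messages can be measured at all.

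All 3 Aurora genes gave signal above background on all 3 arrays. AUR2 lay 2.99 ± 0.81 log2 above the background level, AUR1 lay 1.80 ± 0.43 above it and AUR3 lay 1.75 ± 0.69 above it (SD, n = 3 arrays each). Background was defined on each array from 6 genes of flowers, pollen and the shoot meristem, as the 90th percentile of their log2 signals. Of the 13350 genes tested, 50.7% lay above it on each of the 3 arrays. By the fit across all genes, an intercept model in limma, 45.3% of genes were called above background at an adjusted p under 0.05 and 25.6% were called below it. The count below was the less stable, at 3414 genes, against 1560 without AMS in the panel, 2269 without replicate 2 and 2226 without replicate 3. With 3 of 3 members called in a list of 3, nothing particular to the family can be read from that count. Nothing in the labels tells whether separate plants or cultures were used for each sample. The p-values therefore reflect only spread among these arrays, which may be technical, and 3 arrays limit the precision of every value. They use a spread shared by genes of like mean signal, not the SD printed beside each value. In RNA pooled from many cells, fewer cells of a type and less RNA per cell cannot be told apart.

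The arrays were alike in overall brightness, with median signals from 76.9 to 81.4 over 22810 probe sets, but not in their background. The background level was a signal of 23.6 on replicate 1, 44.9 on replicate 2 and 49.0 on replicate 3. It is set largely by AMS, a tapetum transcription factor of the anther and the brightest panel gene on each array, at 48.4, 59.7 and 99.4. On replicate 3 the AUR3 signal, at 99.1, was no higher than that of AMS, although it lay above the background level. With AMS left out of the panel, AUR2 lay 3.94 log2 above background, AUR1 2.75 and AUR3 2.70, and with bacterial control probe sets as background the values were 3.98, 2.80 and 2.74. Both of these lowered the background level on every array, so the 3 calls could hardly end under them, and that they held adds no support. The size of each excess depends on the background chosen. Replicate 2 also had the brightest hybridisation spikes, with a median of 6518 over 18 probe sets, against 2771 on replicate 1 and 3701 on replicate 3. Pearson's r of log2 signal across probe sets, which are not independent replicates, was between 0.882 and 0.896 for the 3 pairs of arrays. Of 9 QC markers listed, 3 were measured and all were above background, as were 45.3% of all genes tested. BBM, a stem cell transcription factor, lay at 3.77 ± 0.38 log2 and JKD at 1.57 ± 0.64. AGL42 lay nearer to the threshold, at 1.14 ± 0.27 (limma adjusted p = 0.0239). WOX5 itself had no probe set naming it alone. Of 20 markers of other root cells, 14 were measured, 9 were above background (64.3%) and 5 were not called, over a range of -0.98 to 3.61. The highest of these was LHW, a vascular transcription factor, followed by EXPA18, an expansin of root hair cells, at 3.59. The part of such cells in the Aurora signals was not tested.

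AUR1 (AT4G32830, on chromosome 4) is an alpha Aurora with 1 transcript in RefSeq. Its probe set, 253403_at, gave MAS5 signals of 114 on replicate 1, 122 on replicate 2 and 156 on replicate 3. MAS5 signals are linear intensities scaled to a common mean on each array, and they depend on the probes, so signals of different genes give no order of transcript amounts. The AUR1 signals were the closest together of the family, with the highest 1.37 times the lowest. Relative to the background of its own array, AUR1 lay at 2.27, 1.45 and 1.68 log2, a mean that corresponds to a signal 3.48-fold over that level (95% interval of the log2 mean 0.98 to 2.62, limma adjusted p = 4.67e-05). Replicate 1 gave the lowest signal of AUR1 and yet its largest excess over background, because the background of that array was the lowest.

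AUR2 (AT2G25880, on chromosome 2) is the other alpha Aurora and has 4 transcripts in RefSeq. Its probe set, 266655_at, gave signals of 355, 234 and 309.5 on replicates 1, 2 and 3. Replicate 1 was the highest and replicate 2 the lowest, with 1.52 times between them. The excess over background was 3.91, 2.38 and 2.66 log2, which is 7.92-fold on average (95% interval of the log2 mean 2.24 to 3.73, limma adjusted p = 2.78e-14). A probe set covers a gene and not each of its transcripts, so these values do not say which of the AUR2 transcripts was present.

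AUR3 (AT2G45490, on chromosome 2), the beta Aurora, has 2 transcripts in RefSeq. Its probe set, 267529_at, gave signals of 124, 159 and 99.1 on replicates 1, 2 and 3. Here replicate 2 was the highest and replicate 3 the lowest, with 1.61 times between them, the widest ratio of the family. The excess over background was 2.39, 1.83 and 1.02 log2, on average 3.35-fold (95% interval of the log2 mean 0.92 to 2.57, limma adjusted p = 9.14e-05). The AUR3 call was the only one of the family to end when a single array was left out. Without replicate 2 the call ended (limma adjusted p = 0.0511), although the value, 1.71, was close to the 1.75 over all 3 arrays. Without replicate 1 the value was lower, at 1.42, and yet the limma adjusted p was 6.8e-08. The p thus did not follow the size of the AUR3 value. The symbol AUR3 is also an older alias of BRU6, an auxin-responsive gene of another family, but no probe set named BRU6, and the match was made through the gene identifier.

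**Figure D1:**
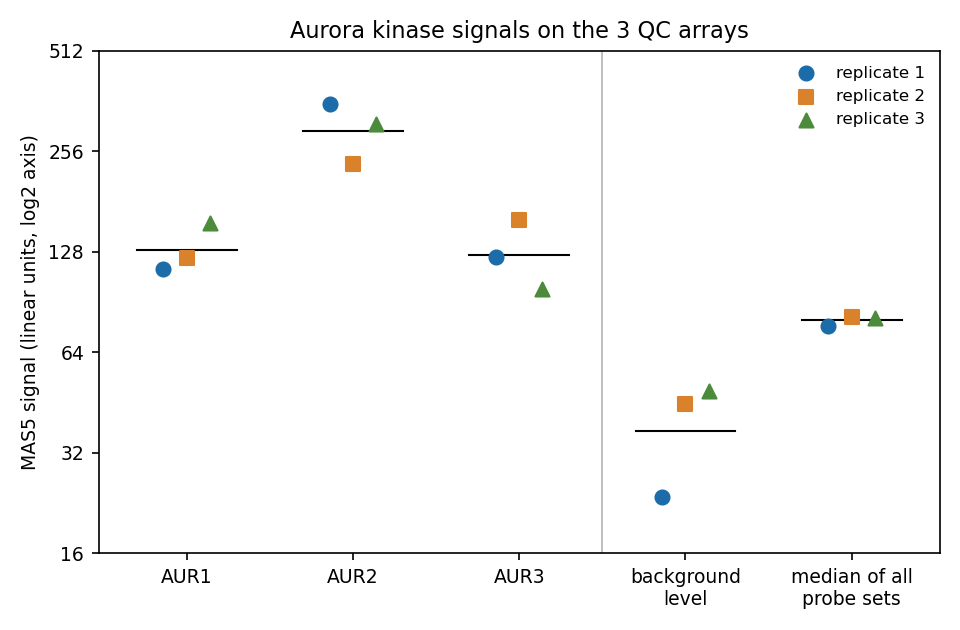
MAS5 signals (linear units on a log2 axis) of AUR1, AUR2 and AUR3 on each of the 3 QC arrays, beside the background level and the median of all probe sets on the same arrays; points are arrays and each line is the mean of the 3 log2 values. The AUR2 points lie between 234 and 355, those of AUR1 between 114 and 156 and those of AUR3 between 99.1 and 159, all above the background levels of 23.6 to 49.0.

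Most of the spread in the excess over background came with the background level and not with the Aurora signals. The log2 signals themselves had an SD of 0.24 for AUR1, 0.31 for AUR2 and 0.34 for AUR3, against 0.43, 0.81 and 0.69 once the background was subtracted. How far each call stood from the threshold was therefore also measured by raising the background in steps of 0.1 log2. The AUR2 call held until the background had been raised by 2.2 log2, whereas the AUR1 call ended at a rise of 1.0 and the AUR3 call at a rise of 0.9. The calls of AUR1 and AUR3 thus rest on a background no more than about 1 log2 too low, and that of AUR2 has more room. The probe sets of all 3 genes carry the plain suffix for probes designed against a single gene, so cross-binding to a relative is not marked in their names.

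The place of each probe set among all others on the same array needs no background level, but it depends on the probes and ranks no gene against another. AUR2 was brighter than 78.8%, 71.2% and 76.3% of the other probe sets on replicates 1, 2 and 3, a mean of 75.4% ± 3.88 (SD, n = 3). AUR1 was brighter than 57.4%, 58.1% and 62.8% of them, with a mean of 59.4% ± 2.95. AUR3 was brighter than 58.9%, 63.6% and 53.8% of them, with a mean of 58.8% ± 4.94. Each gene kept its place within 10 percentage points over the arrays.

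The 3 genes did not move together between the arrays. After each array was centred on its median, AUR1 was at -0.13, -0.11 and 0.24 log2 from its own mean on replicates 1, 2 and 3. AUR2 was at 0.32, -0.36 and 0.04, and AUR3 at 0.04, 0.32 and -0.36. Each gene was highest on a different array, and each was lowest on a different one. The range between the highest and lowest array was 0.37 log2 for AUR1, 0.68 for AUR2 and 0.68 for AUR3, against a median of 0.45 over the 6051 genes above background. Of these genes 39.2% had a smaller range than AUR1, 77.6% a smaller one than AUR2 and 77.4% a smaller one than AUR3. Single arrays set these ranges: the range fell to 0.02 for AUR1 without replicate 3, to 0.28 for AUR2 without replicate 2 and to 0.28 for AUR3 without replicate 3. These 3 arrays hold too few samples for a correlation, and the differences between arrays were not tested against any condition.

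**Figure D2:**
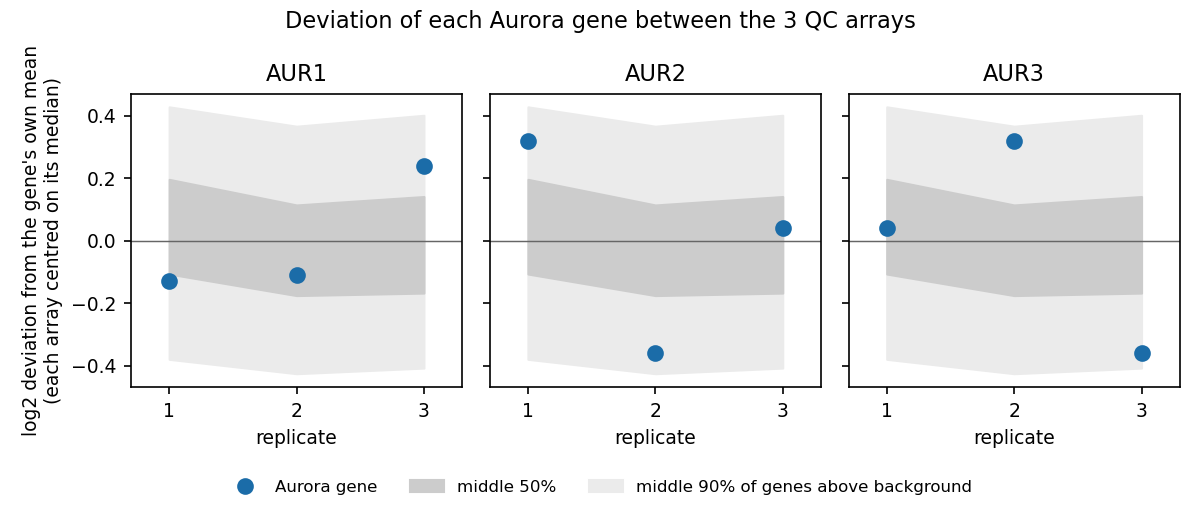
Log2 deviation of AUR1, AUR2 and AUR3 from the mean of the gene itself on the 3 QC arrays, after each array was centred on its median; the dark and light bands hold the middle 50% and 90% of the 6051 genes above background. AUR1 was highest on replicate 3 at 0.24, AUR2 on replicate 1 at 0.32 and AUR3 on replicate 2 at 0.32.

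The distance between 2 genes was taken as the root mean square difference of these centred deviations. It was 0.32 log2 between AUR1 and AUR2, 0.44 between AUR1 and AUR3 and 0.48 between AUR2 and AUR3. These are not short distances on these arrays: of the 6050 other genes above background, 66.7% lay nearer to AUR1 than AUR2 did, and 87.9% lay nearer to it than AUR3 did. From AUR2, 54.5% lay nearer than AUR1. From AUR3, 76.0% lay nearer than AUR1 and 83.3% nearer than AUR2. The alpha pair was the closest pair of the family, but most of the other genes lay closer to AUR2 than its partner did.

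The genes whose pattern was most like AUR1 were AT5G47970, AT1G35220 and AT1G68430, all within 0.0071 log2. Those nearest to AUR2 were AT4G32120, EXPA4 and AT5G10730, within 0.0093. EXPA4, an expansin that loosens cell walls, had signals of 550.1, 365 and 482, with the same order of arrays as AUR2. Nearest to AUR3 were AT5G10750, AT3G54130 and AT1G74360, within 0.014. With only 3 arrays many genes come out alike, and 506 genes (8.36%) lay within 0.1 log2 of AUR1, 297 (4.91%) of AUR2 and 202 (3.34%) of AUR3, so these names describe the arrays and say nothing of shared function.

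The other genes of the cell cycle give the setting of these values. Of 182 listed in 10 groups, 29 were measured by a probe set of their own, and 20 of these (69.0%, against 45.3% of all genes tested) were above background, 1 was below and 8 were not called. No group had more than 5 measured genes, so each count by group is to be read beside that 45.3% and was not tested against it. The median over the 29 was 1.83 log2 above background, against 0.62 over all genes tested, and the range was from -2.29 to 5.06. Since signals depend on the probes, these values do not rank the Aurora genes among the others. No probe set was counted as naming 1 gene alone for any of the 23 mitotic cyclins and cyclin-dependent kinases (CDKs). The same held for the 15 D-type cyclins and CDK-activating kinases, so the transcripts most used to score division were not analysed here. A probe set whose symbol held a semicolon was counted as naming several genes, even if the symbol was that of 1 gene. This absence may therefore come from the matching and not from the array, which was not tested. Of the 29 genes, 11 carry no name in the annotation and are given by locus.

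**Figure D3:**
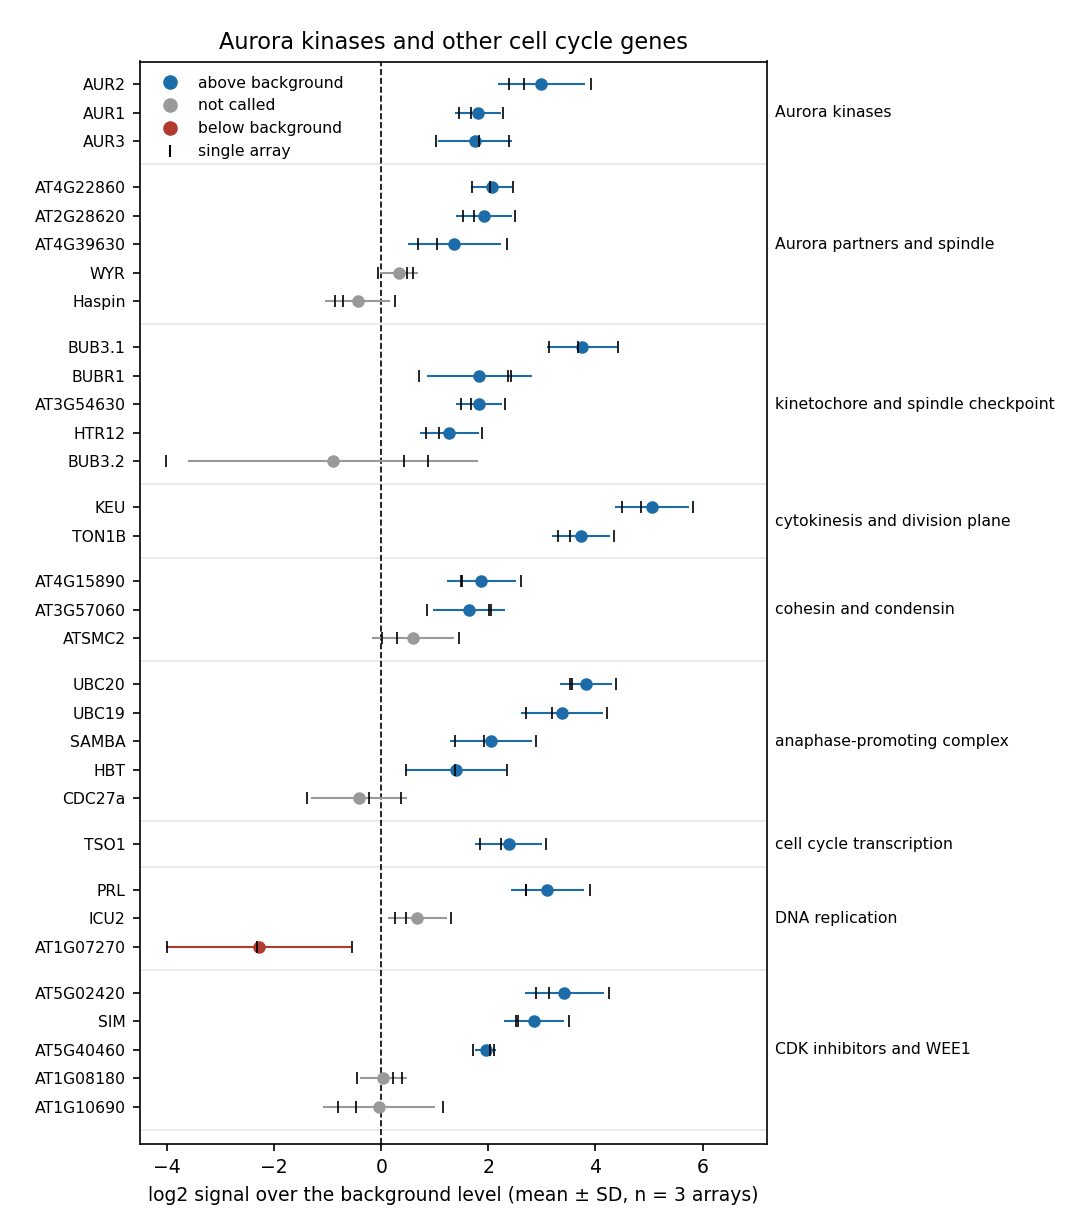
Log2 signal over the background level for the 3 Aurora genes and 29 other cell cycle genes, by group; dots and lines are the mean ± SD over 3 arrays, ticks are single arrays, and colours give the call of the limma fit. AUR2 lies at 2.99, AUR1 at 1.80 and AUR3 at 1.75, and the other genes spread from -2.29 (AT1G07270) to 5.06 (KEU).

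Proteins that bind or serve Aurora kinases and the spindle were measured for 5 of 17 genes, with 3 above background and a list median of 1.36 log2. AT4G22860 was at 2.06 ± 0.38 with signals of 130.0, 183 and 159 (limma adjusted p = 1.06e-06). AT2G28620 was at 1.92 ± 0.52, and AT4G39630 was at 1.36 ± 0.87. In the gene list used here these 3 genes stand as TPXL3, RSW7 and BORR, in that order. WYR, the plant counterpart of the inner centromere protein that anchors Aurora in its chromosomal complex, did not pass the test, with signals of 35.6, 62.7 and 46.5 and a value of 0.33 ± 0.36 (limma adjusted p = 0.595). Haspin, a kinase that marks histone H3 at centromeres, was not called either, at signals of 28.2, 27.3 and 26.9 and a value of -0.44 ± 0.61 (limma adjusted p = 0.558). The group thus held genes on both sides of the threshold, and whether they differ was not tested, as their probes differ.

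Of 12 genes of the kinetochore and the spindle checkpoint, the site and the safeguard that Aurora acts on, 5 were measured. Above background were 4 of them, as were 45.3% of all genes tested. BUB3.1, a checkpoint protein, was at 3.75 ± 0.65 log2. BUBR1, another checkpoint protein, was at 1.83 ± 0.98, with an uneven set of signals, 127, 73.2 and 253. HTR12, the histone H3 variant of centromeres, was at 1.27 ± 0.55 (limma adjusted p = 0.00938), and AT3G54630 at 1.82 ± 0.43. BUB3.2 was not called, at -0.91 ± 2.71, since its signal was 43.1 on replicate 1 and 66.0 on replicate 3, but 2.74 on replicate 2.

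Few genes of chromosome structure and exit from mitosis could be measured. For cohesin and condensin 3 of 17 genes were measured: AT4G15890 at 1.87 ± 0.64 and AT3G57060 at 1.64 ± 0.67 were called, while the condensin subunit ATSMC2 at 0.59 ± 0.76 was not. For the anaphase-promoting complex, the ubiquitin ligase that removes mitotic proteins, 4 of 5 measured genes were above background. These were the ubiquitin-conjugating enzymes UBC20 at 3.82 ± 0.49 and UBC19 at 3.37 ± 0.77, the regulator SAMBA at 2.05 ± 0.77 and the subunit HBT at 1.39 ± 0.94. The related subunit CDC27a lay at -0.42 ± 0.90 and was not called (limma adjusted p = 0.579).

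At the division plane, both measured genes lay far above background. KEU, a protein of the secretory pathway that acts at the forming cell plate, had signals of 1336, 1294 and 1103 and lay at 5.06 ± 0.69 log2. TON1B, which is needed for the preprophase band that marks the division plane, lay at 3.73 ± 0.55. KEU is also used in secretion outside division, so its signal is no measure of dividing cells. TSO1, a regulator of cell cycle transcription, lay at 2.38 ± 0.63.

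Replication genes were mixed. The replicative helicase subunit PRL, also called MCM7, had signals of 350.2, 294 and 319 and lay at 3.1 ± 0.68 log2 (limma adjusted p = 2.39e-15). ICU2, the catalytic subunit of DNA polymerase alpha, was not called at 0.67 ± 0.55. AT1G07270 was the single cell cycle gene below background, at -2.29 ± 1.73 with signals of 16.2, 2.80 and 9.71 (limma adjusted p = 0.0220). That call depended on the background and on the arrays: 0 cell cycle genes were below background without replicate 2, without replicate 3, without AMS in the panel, at its 75th percentile or against bacterial controls, and 4 were with the background raised by 1 log2. Among CDK inhibitors and WEE1, 3 of 5 measured genes were above background: AT5G02420 at 3.42 ± 0.73, SIM, an inhibitor tied to the switch from division to endoreduplication, at 2.86 ± 0.56, and AT5G40460 at 1.95 ± 0.20. Of the group, AT1G08180 and AT1G10690 were not called, at 0.04 ± 0.44 and -0.04 ± 1.05. Signal above background was thus measured both for genes that promote division and for genes that restrain it.

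Between arrays the cell cycle genes had no common high array either. Of the 20 above background, 9 were highest on replicate 1, 3 on replicate 2 and 8 on replicate 3, while 3 were lowest on replicate 1, 11 on replicate 2 and 6 on replicate 3. Of all 6051 genes above background, 41.3%, 27.9% and 30.8% were highest on replicates 1, 2 and 3, and 26.5%, 37.1% and 36.4% were lowest there. AUR2, highest on replicate 1 and lowest on replicate 2, followed the commonest order of these genes for both ends. As a choice made after the values were seen, the cell cycle genes within 0.1 log2 of each Aurora pattern were listed: 4 of 20 for AUR1, the nearest being AT3G54630 at 0.011, then AT2G28620, UBC20 and HTR12; 2 for AUR2, AT4G39630 at 0.053 and AT5G02420 at 0.073; and 0 for AUR3, whose nearest was BUB3.1 at 0.12. Of all genes above background, 8.36%, 4.91% and 3.34% lay within that limit of AUR1, AUR2 and AUR3. With only 3 arrays many genes come out alike, so this list says nothing of shared function.

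The Aurora genes were also set beside their neighbours on the chromosome, taking 2 protein-coding genes on each side in RefSeq order. Of these 12 neighbours 3 were measured, all of them next to AUR2 or AUR3. AT2G25870, on one side of AUR2, gave signals of 185, 142 and 116 and lay at 1.96 ± 0.90 log2 (limma adjusted p = 5.06e-06). AT2G25890, on its other side, gave 2.54, 2.80 and 2.86 and lay below background at -3.77 ± 0.49 (limma adjusted p = 0.000936). AT2G45500, beside AUR3, gave 154, 226 and 138 and lay at 2.18 ± 0.62 (limma adjusted p = 1.64e-07). AUR2, above background on every array, thus had a neighbour that was also above background and one that was far below it on every array. In AT2G45500 replicate 2 was the highest and replicate 3 the lowest, the same order of arrays as in AUR3. Neither AT2G25870 nor AT2G25890 had the order of AUR2. With only 3 arrays few orders are possible, so a match says nothing of a link between neighbours.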

How the data were processed

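Protoplasts positive for WOX5:GFP were profiled on 3 ATH1 arrays. The authors deposited 1 linear MAS5 signal, an intensity from 1 colour, for each probe set. For MAS5, version, settings and detection calls were not given in the sources used here. The mean after leaving out 2% at each end was 250.0 on every array, so changes in total RNA are hidden. Identical values numbered 0 in each pair of arrays.

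Signals were taken as log2 with no offset. Genes were named from GEO's platform table, with symbols brought up to date from RefSeq (TAIR10.1, for names and gene order only): 13513 probe sets named 1 gene, 503 several, 8730 none and 64 were controls, and 13436 were found in RefSeq. A semicolon in the symbol or identifier was read as several genes, so the 503 may include single genes whose symbol holds one. Several probe sets of 1 gene were averaged. The background panel was ANX1, ANX2, MGH3, A9, AMS and CLV3, which were not tested. Log2 signal minus the background level was tested against 0 in limma 3.58.1 (R 4.3.3, two-sided, eBayes with a mean-variance trend, Benjamini-Hochberg over 13350 genes). The prior degrees of freedom were infinite, so spreads came wholly from the trend. Differences of the background level between arrays enter the spread of every gene; an error common to all arrays is not in the intervals.

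Members, lists and tests were chosen with earlier results of these data known. Named were all Aurora genes, each measured cell cycle gene up to 8 a list, the 3 genes nearest in pattern, chromosomal neighbours and measured markers, of which the lists give counts and examples. Alternatives were other background percentiles (75 and 95), the panel without AMS, bacterial controls, a background raised by 1 log2, quantile normalization, an offset of 16, no variance trend, filters on probe sets and on low values, and leaving out each replicate.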

Additional observations from a re-analysis of the deposited data

How the results depend on the processing

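Over 13 planned settings for each Aurora gene, 36 of 39 results were positive and past the threshold. Among these settings, the 75th percentile, the panel without AMS and the bacterial controls lowered the background. The filters on probe sets and on low values left the Aurora values unchanged. Such settings could hardly end a call, so the tally is no measure of robustness. A background 1 log2 higher ended the calls of AUR1 (0.80, limma adjusted p = 0.0739) and AUR3 (0.75, limma adjusted p = 0.0988), and without replicate 2 that of AUR3 ended (1.71, limma adjusted p = 0.0511). Leaving out each replicate gave 1.42 to 2.11 for AUR3. In steps of 0.1 log2, an alternative added after the data were seen, the calls ended at a rise of 1.0 for AUR1 (0.80), 2.2 for AUR2 (0.79, limma adjusted p = 0.0510) and 0.9 for AUR3 (0.85, limma adjusted p = 0.0604). Without the variance trend the adjusted p in limma was 0.00815 for AUR1, 0.000288 for AUR2 and 0.0110 for AUR3. The place on the array among probe sets naming 1 gene was 64.5% for AUR1, 79.7% for AUR2 and 63.9% for AUR3. Leaving out 1 array put the range between arrays at 0.02 to 0.37 log2 for AUR1 (lowest without replicate 3), 0.28 to 0.68 for AUR2 (lowest without replicate 2) and 0.28 to 0.68 for AUR3 (lowest without replicate 3). Genes above background numbered 4602 to 7605 and cell cycle genes 14 to 24. Genes below background, 3414 in the report, numbered 1560 without AMS, 1636 at the 75th percentile, 5217 with the raised background, 1713 against bacterial controls and 2226 to 2623 with each replicate left out. No paired analysis was possible because there is 1 group. Signals near the background level, such as those of WYR and Haspin, are not resolved by 3 arrays.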
